A study of Mus musculus with 8 samples.

Results

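Keratins and the genes of epithelial contacts were followed through 4 groups of mouse cells, as 10 genes of the 23483 in the count table. They are the keratins Krt7, Krt8, Krt18 and Krt19, the adhesion genes Cdh1 and Epcam, the tight junction genes Cldn6 and Tjp1, and the protease inhibitor genes Spint1 and Spint2. They were chosen by name, with earlier results of these data known. Each was read from its RefSeq transcript with the highest total count over all 8 libraries. The study is about Set7, a lysine methyltransferase encoded by Setd7, on the way from embryonic stem cells to smooth muscle, and it sequenced poly(A) RNA of 4 groups of 2 libraries. All cells were labelled C57BL/6 and 5.5 mM glucose. The knock-down group held Sca1 cells with a lentiviral shRNA against Set7, and the NTC group held Sca1 cells with a lentiviral non-target shRNA. Both were selected with puromycin for at least a week, per the labels' protocols. The untreated Sca1 group had no construct, and the mESC group was stem cells kept with LIF. Sca1 is a surface protein encoded by Ly6a, and the protocols describe a magnetic bead sort for it after 4 days of culture on gelatin without LIF. The sorted cells, stated to be more than 80% pure, then grew for 2 to 8 population doublings. No label says whether replicates came from separate cultures. The p-values therefore reflect only how far these libraries differ from each other, which may be technical.

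Keratins are the intermediate filaments of epithelia, and each filament is built from pairs of a type I and a type II chain. Krt8 (type II) and Krt18 (type I) are the pair of simple epithelia and of the earliest embryonic epithelium, and Krt7 (type II) and Krt19 (type I) join them in ducts and in trophectoderm. E-cadherin, encoded by Cdh1, holds both embryonic stem cells and epithelial cells together, and factors of the Snail, Zeb and Twist families repress its gene when cells become mesenchymal.

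Gene totals lay between 2507938 counts (untreated Sca1 replicate 2) and 5080266 counts (mESC replicate 2). Levels are TMM-scaled CPM, that is, counts relative to library size. Setd7 stood at 14.0 and 10.8 CPM in the knock-down libraries and at 60.7 and 66.6 CPM in NTC, a fall of log2 -2.39 ± 0.20 (SE). Ly6a did not mark the Sca1 groups off from stem cells, at 9.81 and 12.5 CPM in the knock-down, 5.44 and 6.46 in NTC, 13.0 and 4.42 in untreated Sca1 and 9.85 and 5.72 in mESC. The stem cell genes Pou5f1 and Nanog were high in all libraries (542 to 844 and 166 to 253 CPM). They were not among the 9 of 14 listed pluripotency genes that fell in untreated Sca1 against mESC, where 1 rose. The second libraries of untreated Sca1 and of mESC share library code 56 in the labels and stood apart, with 8.97% and 8.63% of counts on the ribosomal transcript NR_046233, against 0.289% to 1.17% in the other 6. Replicates differed far more in untreated Sca1 (chi-square per degree of freedom 40.3) and mESC (54.4) than in the knock-down (2.08) and NTC (1.54). That chi-square is summed over genes with NR_046233 among them, which weighs heavily in it, and was not computed without that transcript. In these bulk samples, fewer cells of a type and less RNA per cell cannot be told apart.

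The 10 genes fell into 2 kinds. The 4 keratins and Cldn6 were low in mESC and many times higher in every Sca1 library, whichever construct the cells carried, while Cdh1, Epcam, Tjp1, Spint1 and Spint2 were present in all 8 libraries and differed by at most 0.80 on the log2 scale between any pair of groups. Between knock-down and NTC, the fall of Krt19 was the 1 call among the 10, where 14.3% of all genes tested were called (10.1% lower). The panels of levels by library show both kinds.

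**Figure D1:**
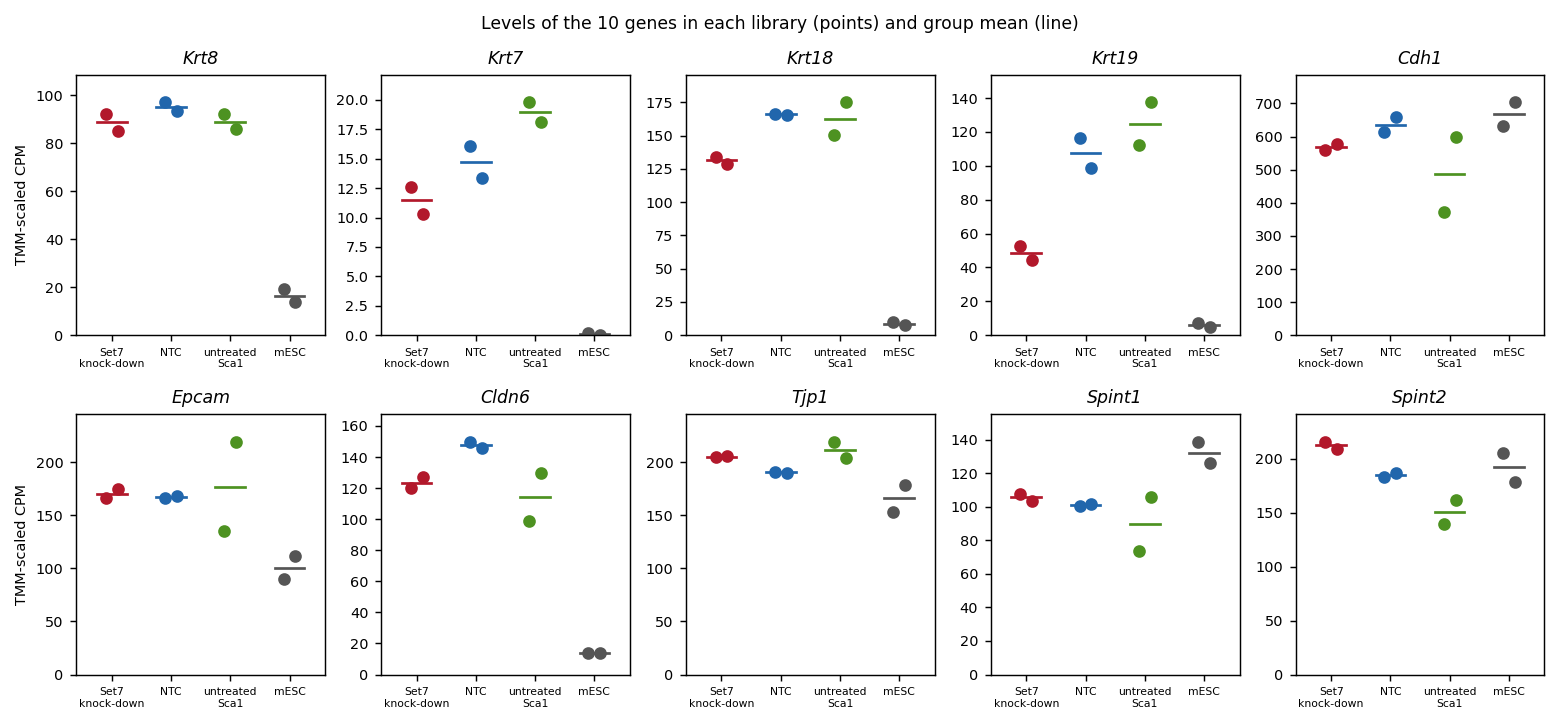
TMM-scaled CPM (vertical axes, each from 0) of the 10 genes in the 2 libraries of each group, with the group mean as a line. Krt7, Krt8, Krt18, Krt19 and Cldn6 sit near the axis in mESC and high in the 3 Sca1 groups. Both knock-down libraries lie below both NTC libraries for Krt19 (52.9 and 44.4 CPM, against 117 and 99.0). By smaller steps they also do for Krt7, Krt8, Krt18, Cdh1 and Cldn6, and they lie above NTC for Tjp1, Spint1 and Spint2. How often libraries separate in this way over all genes was not counted.

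The keratins are taken first. Krt7, Krt8 and Krt18 lie on chromosome 15, and 23873 bases separate Krt8 from Krt18, which was the sole type I keratin of the table on that chromosome. Krt19 lies among the other type I genes on chromosome 11. To show what lies before the starts of the 3 keratins on chromosome 15, which were all higher in Sca1 cells, and before Epcam, which differed less, the 250 bases upstream of these 4 genes follow, from the RefSeq promoter table (GRCm38.p6), 5′ to 3′ on the gene's strand. Capitals mark the E-box CAGGTG or CACCTG, which are the same site read on opposite strands and the letters that Snail and Zeb factors bind. The windows are chr15:102004343-102004592 (Krt8, minus strand), chr15:102027966-102028215 (Krt18, plus), chr15:101412153-101412402 (Krt7, plus) and chr17:87635729-87635978 (Epcam, plus).
Krt8: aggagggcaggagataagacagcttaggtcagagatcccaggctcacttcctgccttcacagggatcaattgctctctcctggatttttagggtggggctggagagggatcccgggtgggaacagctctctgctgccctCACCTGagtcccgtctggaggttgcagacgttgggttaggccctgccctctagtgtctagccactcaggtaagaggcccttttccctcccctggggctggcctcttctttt
Krt18: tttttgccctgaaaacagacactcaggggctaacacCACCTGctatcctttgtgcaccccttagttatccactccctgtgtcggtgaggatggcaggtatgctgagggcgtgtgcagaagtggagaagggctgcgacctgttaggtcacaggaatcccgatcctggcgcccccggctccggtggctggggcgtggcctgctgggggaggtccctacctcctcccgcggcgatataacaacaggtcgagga
Krt7: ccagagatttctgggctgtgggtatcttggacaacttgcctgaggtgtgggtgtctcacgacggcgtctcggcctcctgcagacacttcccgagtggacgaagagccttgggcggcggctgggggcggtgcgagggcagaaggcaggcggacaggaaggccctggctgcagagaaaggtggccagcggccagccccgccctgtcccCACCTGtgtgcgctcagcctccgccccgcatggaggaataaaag
Epcam: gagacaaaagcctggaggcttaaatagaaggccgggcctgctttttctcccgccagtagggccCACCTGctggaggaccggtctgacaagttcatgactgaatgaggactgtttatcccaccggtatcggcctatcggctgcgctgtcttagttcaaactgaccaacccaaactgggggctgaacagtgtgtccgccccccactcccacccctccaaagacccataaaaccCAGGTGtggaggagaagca
Of the 8 members in that table, 6 held the E-box at least once. It began 111 bases before the listed start of Krt8, 214 before Krt18, 44 before Krt7, 187 and 19 before Epcam, 93 before Cldn6, and 74, 55 and 9 before Spint2. Spint1 and Tjp1 had none in this window, and Krt19 and Cdh1 were not analysed here. The listed starts of Cldn6, Spint2 and Tjp1 lie inside the gene spans given below. The windows of Cldn6 (chr17:23679115-23679364) and Spint2 (chr7:29281978-29282227) overlap those spans in part, and the Spint2 matches lie within its span. That of Tjp1 (chr7:65371245-65371494) lies wholly inside its gene. All 32851 windows of that source were searched alike, and 17.2% held the letters at least once, 2.06% at least 2 times and 0.247% at least 3 times. A match is a description of the letters and not a measured binding site.

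Krt8 (NM_031170, chr15:101996711-102004342, GRCm38.p6), the type II partner of simple epithelia, had 92.1 and 85.1 CPM in the knock-down, 96.9 and 93.2 in NTC, 92.1 and 85.7 in untreated Sca1 and 19.2 and 13.6 in mESC. All 6 Sca1 libraries lay in 1 narrow band, above both mESC libraries. Krt8 was 5.42-fold higher in untreated Sca1 than in mESC (log2 2.44 ± 0.17 SE, adjusted p = 6.52e-09, edgeR with Benjamini-Hochberg adjustment, as for all adjusted p below). Knock-down and NTC did not differ by that test (log2 -0.10, 95% interval -0.40 to 0.19).

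Krt18 (NM_010664, chr15:102028216-102032026), the type I partner, stood at 134 and 129 CPM in the knock-down, 166 and 166 in NTC, 151 and 175 in untreated Sca1 and 10.1 and 7.48 in mESC. Both knock-down libraries were below all 4 other Sca1 libraries, which in turn overlapped. The difference of untreated Sca1 from mESC was 18.5-fold (log2 4.21 ± 0.17, adjusted p = 5.78e-12), a larger step than that of Krt8. Between knock-down and NTC it was log2 -0.34 ± 0.12 and missed the threshold (adjusted p = 0.0782). It passed with either mESC library left out (0.0222 and 0.0245) and in the fit of these 4 libraries alone (0.00066).

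Krt19 (NM_008471, chr11:100140810-100145926), the smallest type I keratin, had 52.9 and 44.4 CPM in the knock-down, 117 and 99.0 in NTC, 112 and 137 in untreated Sca1 and 7.10 and 4.62 in mESC. The knock-down libraries stood between mESC and the other Sca1 libraries and overlapped neither. Krt19 fell 2.23-fold in the knock-down against NTC (log2 -1.16 ± 0.16, adjusted p = 5.83e-05), by -1.13 and -1.15 within library codes 12 and 34. It also fell against untreated Sca1 (-1.37 ± 0.16, adjusted p = 1.57e-05), and it was still higher than in mESC (3.04 ± 0.22, adjusted p = 3.33e-08). In untreated Sca1 it was 21.2-fold higher than in mESC (log2 4.41 ± 0.21, adjusted p = 5.97e-11).

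Krt7 (NM_033073, chr15:101412403-101427806), the second type II chain, had the lowest level per kb of transcript among the 10 in every group. Its level was 12.6 and 10.3 CPM in the knock-down, 16.1 and 13.4 in NTC, 19.8 and 18.1 in untreated Sca1 and 0.229 and 0 in mESC. It had 1 count in both mESC libraries together. Untreated Sca1 had 105 counts, a ratio of 170 with a 95% counting interval of 29.9 to 6784 that covers counting error only. The group means descended from untreated Sca1 through NTC to the knock-down, but neighbouring groups were not called apart (adjusted p = 0.434 for NTC against untreated Sca1 and 0.386 for knock-down against NTC).

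Because a filament needs both chain types, the levels were also set per length, as CPM per kb of the transcript. Type I chains (Krt18 plus Krt19) outweighed type II chains (Krt7 plus Krt8) 2.53 and 2.57 times in the knock-down, 3.55 and 3.50 times in NTC, 3.40 and 4.33 times in untreated Sca1 and 1.17 times in both mESC libraries. All Sca1 libraries had more type I than type II transcript, and the knock-down values lay below those of the 4 other Sca1 libraries. These ratios are within a library and do not depend on its scaling.

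Within the pair, Krt18 per kb was 1.98 and 2.07 times Krt8 in the knock-down, 2.34 and 2.43 times in NTC, 2.23 and 2.78 times in untreated Sca1, but 0.714 and 0.747 times in mESC. Krt8 was therefore the more abundant transcript of the pair in stem cells, and Krt18 in all Sca1 libraries. Krt19 per kb was 0.360 and 0.314 of Krt18 in the knock-down, against 0.639 and 0.544 in NTC, 0.680 and 0.716 in untreated Sca1 and 0.642 and 0.563 in mESC. Only the knock-down libraries lay below the range of the 6 others. With 2 libraries a group these ratios were not tested.

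**Figure D2:**
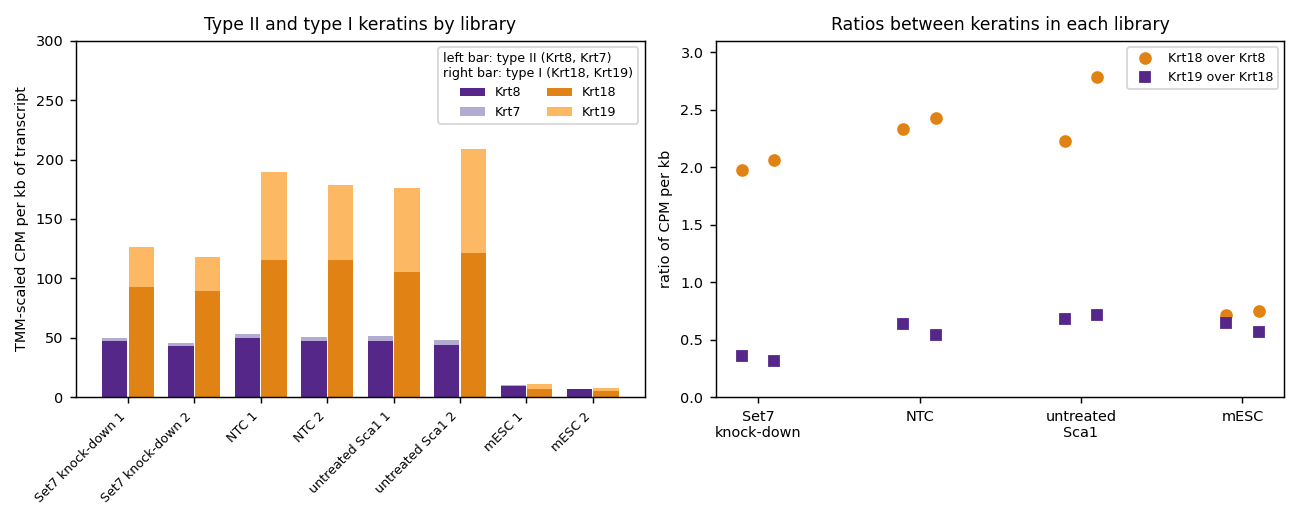
Left, TMM-scaled CPM per kb of transcript (stacked bars from 0) of type II keratins (left bar) and type I keratins (right bar) in each library. Right, the ratio of Krt18 to Krt8 (circles) and of Krt19 to Krt18 (squares), each per kb, in the 2 libraries of each group; Krt18 over Krt8 is below 1 in mESC (0.714 and 0.747) and near 2 or above in the Sca1 groups.

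Few of the other keratins had enough counts to be compared. Of 49 keratin genes in the table, 45 are not among the 10 genes, 10 of these had no count in any library, and 4 had enough counts to be tested (Krt10, Krt17, Krt23 and Krt42, all type I). The 4 simple keratins held 87.4% and 87.2% of all keratin counts in the knock-down, 94.2% and 94.7% in NTC, 92.0% and 96.2% in untreated Sca1 and 50.2% and 52.7% in mESC. Krt23, another type I gene of chromosome 11, rose in the knock-down where Krt19 fell. It had 20.3 and 22.6 CPM in the knock-down, against 5.20 and 4.68 in NTC (log2 2.12 ± 0.29, adjusted p = 4.63e-05), and 7.11 and 3.53 in untreated Sca1. Krt42 was lower in untreated Sca1 than in mESC (log2 -1.66 ± 0.39, adjusted p = 0.00281), at 5.87 and 1.77 CPM against 14.0 and 12.1. A Krt8 pseudogene and the sequence shared among keratins leave room for reads placed on the wrong member, since how repeated matches were counted is not given in the sources used here.

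Of the adhesion genes, Cdh1 (NM_009864, chr8:106603350-106670247) was high throughout. E-cadherin transcript stood at 560.4 and 576 CPM in the knock-down, 613 and 658 in NTC, 372 and 600.0 in untreated Sca1 and 633 and 703 in mESC. Untreated Sca1 replicate 1 was far below the 7 others. The fall in untreated Sca1 against mESC was log2 -0.46 ± 0.17 (adjusted p = 0.0386), and without that library the value was -0.15 (adjusted p = 0.433), while without untreated Sca1 replicate 2 it was -0.84 (adjusted p = 0.00056). The call was also lost without mESC replicate 1 (adjusted p = 0.113), without mESC replicate 2 (0.274) and without any 1 of the NTC or knock-down libraries (0.0633 to 0.0748). Neither the knock-down against mESC (-0.23, adjusted p = 0.333) nor NTC against mESC (-0.07, adjusted p = 0.766) was called.

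Epcam (NM_008532, chr17:87635979-87651127), an adhesion molecule of epithelia and stem cells, had 166 and 174 CPM in the knock-down, 166 and 168 in NTC, 135 and 219 in untreated Sca1 and 90.0 and 111 in mESC. The Sca1 libraries were above both mESC libraries, and untreated Sca1 spanned the range of the other Sca1 groups. Epcam rose 1.74-fold in untreated Sca1 against mESC (log2 0.80 ± 0.18, adjusted p = 0.00226). The value was 1.124 without untreated Sca1 replicate 1 and 0.43 without replicate 2 (adjusted p = 4.47e-05 and 0.0448), and the call was lost without mESC replicate 1 (0.66, adjusted p = 0.052). NTC and knock-down against mESC gave similar sizes, at 0.73 ± 0.17 (adjusted p = 0.0037) and 0.76 ± 0.17 (adjusted p = 0.00418). The knock-down against NTC gave 0.03 (95% interval -0.34 to 0.39).

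Cldn6 (NM_018777, chr17:23679348-23682446), a claudin of early embryonic epithelia, was low in mESC like the keratins. It stood at 119.8 and 127 CPM in the knock-down, 149.8 and 146 in NTC, 98.9 and 129 in untreated Sca1 and 14.0 and 13.6 in mESC. Both knock-down libraries lay below both NTC libraries and within the range of untreated Sca1. Cldn6 was 8.20-fold higher in untreated Sca1 than in mESC (log2 3.04 ± 0.17, adjusted p = 3.54e-10), and the knock-down against NTC was not called (-0.26 ± 0.13, adjusted p = 0.219).

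Tjp1 (NM_001163574, chr7:65296165-65527850) encodes ZO-1, the scaffold under tight junctions. It stood at 205 and 206 CPM in the knock-down, 191 and 190.4 in NTC, 219 and 204 in untreated Sca1 and 154 and 179 in mESC. The mESC libraries were the lowest 2. The difference of untreated Sca1 from mESC was small (log2 0.35 ± 0.12, adjusted p = 0.0284), and the call was lost without mESC replicate 1 (adjusted p = 0.108), without untreated Sca1 replicate 1 (0.124) and without any 1 of the NTC or knock-down libraries (0.0528 to 0.0589).

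The inhibitor genes were among the 3 that were lower in untreated Sca1 than in mESC. Both encode membrane inhibitors of serine proteases. Spint1 (HAI-1, NM_016907, chr2:119237360-119249535) had 108 and 103 CPM in the knock-down, 100.2 and 102 in NTC, 73.9 and 106 in untreated Sca1 and 139 and 126 in mESC. All Sca1 libraries were below both mESC libraries. The fall in untreated Sca1 against mESC was -0.57 ± 0.15 (adjusted p = 0.00575). Without untreated Sca1 replicate 1 it was -0.32 (adjusted p = 0.115). In NTC against mESC it was -0.39 ± 0.14 (adjusted p = 0.0393).

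Spint2 (HAI-2, NM_001082548, chr7:29256330-29282059) stood at 216 and 209 CPM in the knock-down, 183 and 186 in NTC, 139.7 and 162 in untreated Sca1 and 206 and 178 in mESC. The knock-down libraries were the highest 2 of the 8 and the untreated Sca1 libraries the lowest 2. Spint2 was lower in untreated Sca1 than in mESC (-0.35 ± 0.12, adjusted p = 0.032). That call was lost without untreated Sca1 replicate 1 (adjusted p = 0.207), without mESC replicate 1 (0.118) and without any 1 of the NTC or knock-down libraries (0.0627 to 0.0674). Spint2 was higher in the knock-down than in untreated Sca1 (0.50 ± 0.12, adjusted p = 0.00956). In that comparison the virus, the selection and the library codes differ as well as the target. Against NTC the gene was not called (0.20 ± 0.12, adjusted p = 0.311). Per kb of transcript, Spint2 had the highest mean of the 10 genes in every group, at 175 ± 4.04 CPM per kb in the knock-down, 153 ± 1.85 in NTC, 124 ± 12.9 in untreated Sca1 and 159 ± 15.8 in mESC (SD, n = 2 each). That rank rests on the transcript used, of 1211 bases. Another of 1384 bases has identical counts and would give lower values, and the rank was not computed with it. Cdh1 came next, with means of 128 in the knock-down, 143 in NTC, 110 in untreated Sca1 and 151 in mESC. Cdh1 stood above Spint2 in mESC replicate 2 (159, against 147) and untreated Sca1 replicate 2 (135.4, against 133.5).

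The comparison of untreated Sca1 with mESC asks what differentiation and sorting changed. All 10 genes were called, 7 higher and 3 lower, where 35.5% of the 13966 genes tested were called in all, 18.7% higher and 16.8% lower. The median of the 10 was log2 1.62, against -0.01 over all genes tested. Because the 10 genes were chosen with earlier results of these data known, these calls and this median do not test the class. In the 2 library codes, where 1 library of each group is compared, all 10 kept their sign. Krt8, Krt18, Krt19 and Cldn6 ranged from 2.23 (Krt8) to 3.89 (Krt19) in code 34 and from 2.61 to 4.74 in code 56. The 3 lower genes moved more in code 34 (Cdh1 -0.77, Spint1 -0.90, Spint2 -0.56) than in code 56 (-0.23, -0.25 and -0.14).

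**Figure D3:**
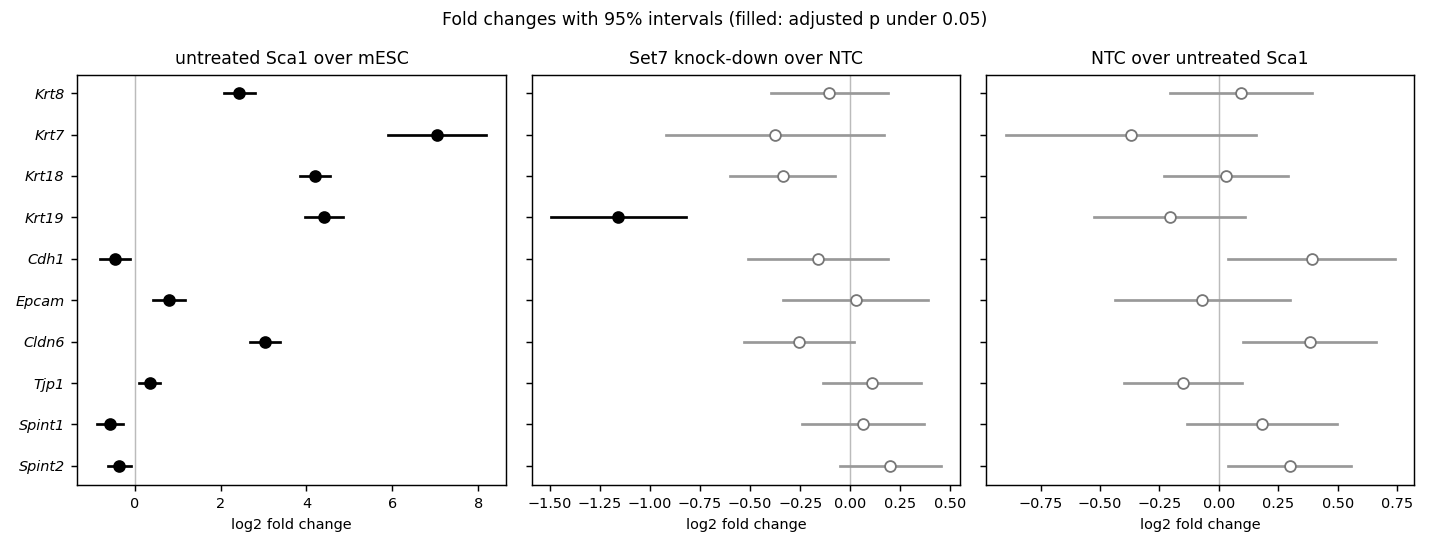
Log2 fold changes (horizontal axes, scales differ between panels) of the 10 genes with 95% intervals in 3 comparisons; filled points passed an adjusted p of 0.05, and the size for Krt7 over mESC rests on 1 mESC count. All 10 are filled for untreated Sca1 over mESC, Krt19 alone for knock-down over NTC (-1.16), and none for NTC over untreated Sca1.

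The knock-down was compared with NTC to ask what depends on Set7. Krt19 was the 1 member called, lower, where 14.3% of all genes were called, 4.25% higher and 10.1% lower. Higher genes made up 29.7% of these calls, and 18.3% with library totals in place of TMM. The median of the 10 was -0.13, against 0.00 over all genes. At an unadjusted p of 0.05, 2 members (Krt18 and Krt19) were lower and 0 higher, and DESeq2 called 1 lower and 0 higher. The share of all genes at that unadjusted threshold was not counted. The spread behind these tests is shared with mESC and untreated Sca1, whose replicates differed more by the chi-square above. The fit of the 4 libraries alone called Cldn6 lower (adjusted p = 0.0137) and Spint2 higher (0.0257) besides Krt18 and Krt19. It also called many more of all genes, 1982 higher and 2434 lower, against 594 and 1404 in the main fit. The added calls are therefore not particular to the members. A p that misses the threshold does not show equal levels: the 95% intervals of the 9 others reached from -0.92 (Krt7) to 0.45 (Spint2).

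NTC cells differ from untreated Sca1 cells by the virus and the selection. Their libraries also differ by code, 12 and 34 in NTC against 34 and 56 in untreated Sca1, and these cannot be told apart. None of the 10 genes was called by edgeR or by DESeq2, where edgeR called 4.99% of all genes (3.88% higher and 1.11% lower). Of edgeR's calls 77.8% were higher, and 96.5% with library totals. At an unadjusted p of 0.05, 3 were higher in NTC (Cdh1 0.39, Cldn6 0.38 and Spint2 0.30). The share of all genes passing that looser threshold was not counted here either. Cldn6 was called without mESC replicate 1 (adjusted p = 0.0379) or 2 (0.0403), and both Cdh1 (0.0124) and Cldn6 (0.0439) without untreated Sca1 replicate 2. In the other pairs of groups, which share libraries with those above, 7 members were called in NTC against mESC (6 higher, 35.1% of all genes called), 6 in the knock-down against mESC (all higher, 25.9%) and 2 in the knock-down against untreated Sca1 (Spint2 and Krt19, 17.2%).

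Chromosome 15 carries a value that stands beside 3 of the keratins. In the knock-down against NTC the median log2 fold change of its 424 genes of at least 10 CPM was 0.41, while the medians of the other chromosomes lay between -0.16 and 0.05. Krt18 minus that median was -0.75, Krt7 -0.79 and Krt8 -0.52. Krt19 on chromosome 11, with a median of 0.01, hardly moved at -1.17. The median of chromosome 15 was 0.08 in untreated Sca1 against mESC and -0.05 in NTC against untreated Sca1. The part of this shift in the keratin values was not tested.

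**Figure D4:**
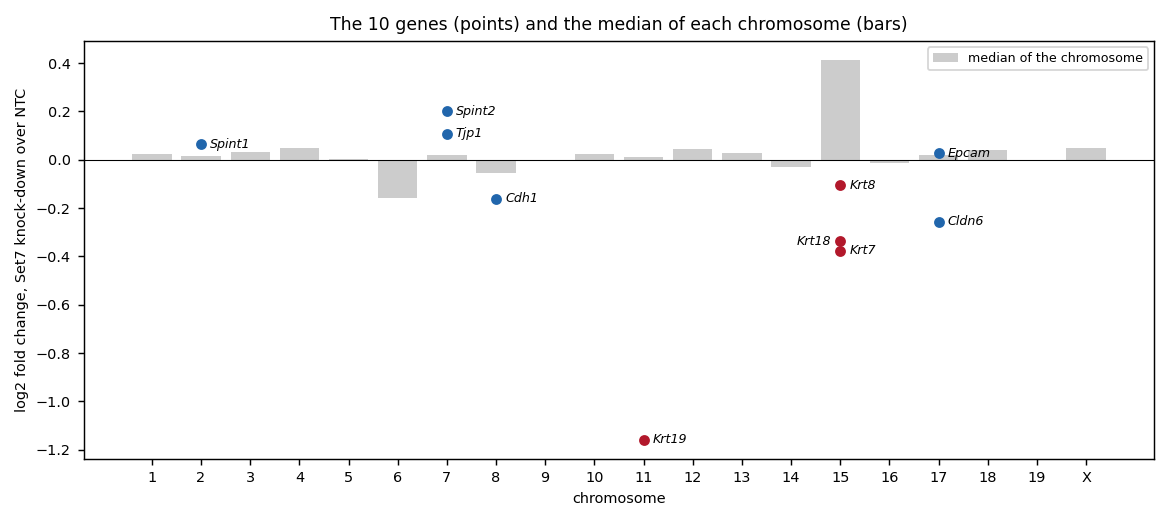
Log2 fold change of knock-down over NTC (vertical axis) for the 10 genes (points; keratins red, others blue) and the median of each chromosome's genes (bars). The bar of chromosome 15 stands at 0.41, and the 3 keratins on it lie below 0; Krt19 on chromosome 11 is the lowest point.

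Genes with the most similar pattern over the 8 libraries were searched among 9983 genes, by the root mean square difference of centred log2 CPM. For Krt8 they were Gadd45g (0.15), Rab15 (0.16) and Tspan7 (0.17), and for Krt18 Wnt3 (0.19), Peg10 (0.28) and Hoxd9 (0.30). For Cdh1 they were Cplane1 (0.08), Sptlc1 (0.08) and Zfp760 (0.09), and for Epcam Qser1, Epha1 and Bend3 (0.11 to 0.12). Among the 10 genes themselves, Krt7 and Krt18 were 0.31 apart and Cdh1 and Spint1 0.15, while Krt7 and Spint1 were farthest at 2.21.

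Related genes were read from lists, of which counts are given with no test of the list. Over all genes tested, 18.7% were called higher and 16.8% lower in untreated Sca1 against mESC. For the knock-down against NTC these shares were 4.25% and 10.1%, and some lists lie near the shares of all genes. In untreated Sca1 against mESC, 4 of 6 tested other claudins rose and none fell (median 1.80), with Cldn4 at 2.45 ± 0.16, Cldn7 at 2.68 ± 0.36 and Cldn3 at 3.06 ± 0.48. Of 24 tight junction genes, 11 rose and 3 fell. The scaffold genes Cgn (1.55 ± 0.22), Patj (1.17 ± 0.19) and Mpdz (1.64 ± 0.28) rose, while the adhesion molecules Jam2 (-1.82 ± 0.19) and Esam (-3.12 ± 0.39) fell. Of 15 other adherens junction genes 4 rose and 1 fell. P-cadherin (Cdh3) rose by 0.68 ± 0.16 and Nectin1 fell (-1.38 ± 0.18).

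Desmosomes are the plaques to which keratin filaments attach. Of 14 tested desmosome and hemidesmosome genes 6 rose and 3 fell in untreated Sca1 against mESC. Desmoplakin (Dsp), which binds the filaments, rose by 2.30 ± 0.16 (82.8 and 95.9 CPM in untreated Sca1, against 19.9 and 16.3 in mESC). The desmosomal cadherin Dsc2 (1.89 ± 0.27) and periplakin (Ppl, 2.32 ± 0.33) rose as well, and the plakophilin-related gene Pkp4 fell (-0.64 ± 0.13). Desmocollin and desmoplakin were also 2 of the 3 genes of this list that fell in the knock-down against NTC, with Dsc2 at -1.05 ± 0.21 and Dsp at -0.49 ± 0.13. The other was the integrin gene Itga6 (-0.40 ± 0.13), and none rose.

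Of the 15 other adherens junction genes, 1 rose and 3 fell in the knock-down against NTC. Cdh3 had 48.3 and 51.2 CPM in the knock-down, against 138 and 139 in NTC, and 55.6 and 70.2 in untreated Sca1. It fell (-1.47 ± 0.14, adjusted p = 9.4e-07), and NTC was higher than untreated Sca1 (1.15 ± 0.15, adjusted p = 0.000224). Ajuba and Vcl, which link the junction to actin, fell too (-0.53 ± 0.11 and -0.51 ± 0.14), and Lima1, on chromosome 15, rose (0.39 ± 0.11). Of 24 tight junction genes 3 fell, namely Mpdz (-1.28 ± 0.25), Cgnl1 (-0.47 ± 0.12) and Patj (-0.60 ± 0.17), and of 6 claudins Cldn4 rose (0.42 ± 0.13).

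Proteases that the Spint proteins restrain, with their relatives, counted 9 tested genes. In untreated Sca1 against mESC 4 rose and 1 fell, among them the serine protease genes Tmprss2 (2.69 ± 0.31) and Prss8 (prostasin, 1.17 ± 0.24), and the protease receptor gene F2rl1 fell (-1.04 ± 0.13). Plau (urokinase), one of those higher in untreated Sca1 (3.30 ± 0.43), fell in the knock-down, with 1.75 and 1.98 CPM, against 10.2 and 11.8 in NTC (-2.52 ± 0.38), and 2 low genes rose, Prss22 (33 counts in the knock-down, 10 in NTC) and Tmprss4 (22 and 6). Of 16 epithelial surface genes, 10 rose and 3 fell in untreated Sca1 against mESC, led by Cd24a (2.82 ± 0.18), Prom1 (3.78 ± 0.30) and Pdpn (2.10 ± 0.22). With the knock-down against NTC 1 rose (the small GTPase gene Rab25, 1.09 ± 0.30) and 3 fell (Cd24a, Fhl2 and Adam10).

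**Figure D5:**
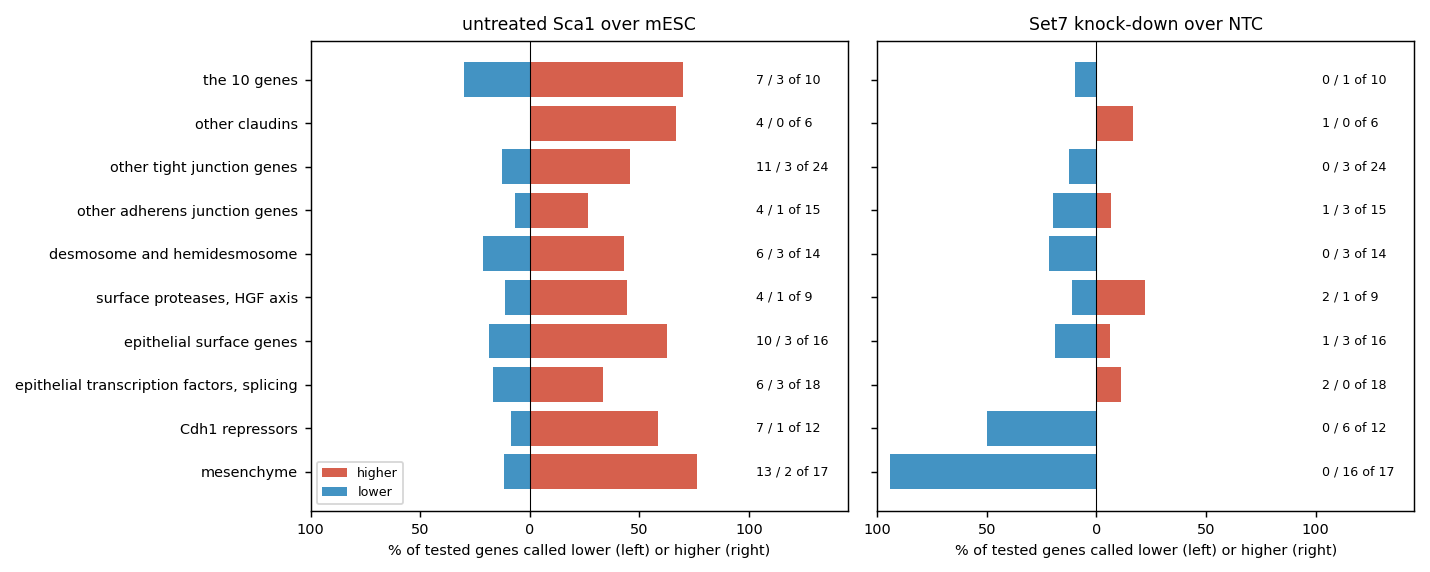
Share of each list's tested genes that were called lower (blue, left) or higher (red, right) in untreated Sca1 over mESC and in knock-down over NTC, with the counts higher / lower of tested beside each bar. Over all genes 18.7% and 16.8% were called higher and lower in the first comparison and 4.25% and 10.1% in the second; mesenchymal genes were lower in 16 of 17 cases in the knock-down.

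Regulators of the epithelial state were read the same way. Among 18 tested activators and splicing factors, 6 rose and 3 fell in untreated Sca1 against mESC. Cdx2, a factor of trophectoderm and of the caudal embryo, rose by 3.48 ± 0.18, the epithelial splicing factor gene Esrp1 by 2.14 ± 0.21 and the grainyhead gene Grhl2 by 1.66 ± 0.18, and Klf5 fell (adjusted p = 1.34e-06). Of the 18 genes 2 rose and none fell in the knock-down against NTC. Grhl2, which lies on chromosome 15, had 97.0 and 98.5 CPM in the knock-down, against 46.1 and 39.5 in NTC (1.19 ± 0.16, adjusted p = 3.41e-05), and Tfap2c rose by 0.63 ± 0.14.

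Repressors of Cdh1 formed a list of 12 tested genes, of which 7 rose and 1 fell in untreated Sca1 against mESC, among them Twist1 (4.25 ± 0.38) and Zeb2 (3.32 ± 0.36). Between knock-down and NTC 6 fell and none rose. Twist1 stood at 1.75 and 2.64 CPM in the knock-down, against 16.5 and 15.6 in NTC (-2.80 ± 0.34). Zeb2 (-2.29 ± 0.35), Zeb1 (-1.35 ± 0.27) and Twist2 (-3.56 ± 0.54) fell as well. Cdh1 itself was not called in that comparison (-0.16, 95% interval -0.51 to 0.19).

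Markers of other cell types moved beside these results. Some lists share genes, so their counts are not separate observations. Twist1, Zeb1 and Zeb2, among others, stand in both the repressor and the mesenchymal list. Cdx2 and Tfap2c, among others, stand in both the activator and the trophectoderm list. Of 17 mesenchymal genes, 13 rose and 2 fell in untreated Sca1 against mESC, and 16 fell in the knock-down against NTC. Their summed level was 2102 and 1859 CPM in the knock-down and 5788 and 5588 in NTC. It was 3758 and 3253 in untreated Sca1 and 2245 and 2443 in mESC. Fn1 made up 1647 and 1384 CPM of that sum in the knock-down and 1385 and 1698 in mESC. Postn was at 0 in both knock-down and both mESC libraries. Against mESC, 7 of the 17 rose in the knock-down and 3 fell, where 13.5% and 12.4% of all genes did. Of 13 trophectoderm genes 6 rose and 3 fell in untreated Sca1 against mESC, and 2 rose and 3 fell in the knock-down against NTC. The summed level of all 18 genes of that list, tested or not, was 760.0 and 759.9 CPM in the knock-down, 699 and 686 in NTC, 714 and 572 in untreated Sca1 and 1006 and 967 in mESC. Esrrb, which the pluripotency list also holds, made up 381 and 244 CPM of that sum in untreated Sca1 and 703 and 658 in mESC. Of 15 extraembryonic endoderm genes 2 rose and 8 fell in untreated Sca1 against mESC, and 3 rose and 3 fell in the knock-down against NTC. The sum of the 19 genes of that list in the count table, tested or not, was 1869 and 1890.0 CPM in the knock-down, 1621 and 1594 in NTC, 1079 and 1070.1 in untreated Sca1 and 2066 and 2072 in mESC. Apoe made up 978 and 904 CPM of it in the knock-down, 692 and 656 in NTC, 481 and 499 in untreated Sca1 and 820 and 751 in mESC. In the same order of groups, Cubn made up 347 and 412, 312 and 328, 104 and 96.8, and 439 and 558 CPM. Of 9 surface ectoderm genes 5 rose in untreated Sca1 against mESC and 1 fell in the knock-down against NTC. The sum of all 14 genes of that list, tested or not, was 121 and 109.7 CPM in the knock-down, 134 and 137 in NTC, 156 and 152 in untreated Sca1 and 96.2 and 96.6 in mESC. Of 3 mesothelial genes 1 fell in untreated Sca1 against mESC, and of 14 pluripotency genes 1 rose and 9 fell there while 3 rose in the knock-down against NTC. The pluripotency sum was 3770.0 and 3636 CPM in the knock-down, 2935 and 2816 in NTC, 3229 and 2867 in untreated Sca1 and 5277 and 4959 in mESC. The mesothelial sum, over the 8 genes of that list in the count table, was between 22.3 and 37.6 CPM in all 8 libraries. The part of any of these cell types in the keratin and junction values was not tested.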

How the data were processed

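Poly(A) RNA of 8 libraries was sequenced on a Genome Analyzer IIx, per the labels' protocols. Tools listed in the submitters' processing notes are edgeR 0.19, BWA 0.5.9 and SAMtools 0.1.17, with no roles. The deposited values are raw read counts per RefSeq transcript. The genome build, the counting program and the strand setting: not given in the sources used here. Transcript totals ran from 3354828 to 6788049. A gene was read from its transcript of highest total count. Spint2 and Tjp1 each had a second transcript with identical counts.

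Genes passing filterByExpr (13966) were TMM-scaled and fitted over all 8 libraries, 1 mean per group (residual degrees of freedom 4), with edgeR 4.0.16 in R 4.3.3. Robust quasi-likelihood F tests were adjusted by Benjamini-Hochberg over all tested genes and called at 0.05. A gene is said to rise or fall only where called. Transcript lengths came from GENCODE vM21. Ratios of 1 to 3 counts carry exact 95% intervals that cover counting error only. Promoters and names came from RefSeq (GRCm38.p6). Code was tested on simulated data. DESeq2 1.42.0 and other scalings, filters, blocks and left-out libraries were alternatives.

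All 10 genes were named. From each list up to 4 tested genes of smallest p in each of 2 comparisons could be named, and Setd7 and the 3 closest patterns of 4 members. Ly6a, Pou5f1, Nanog, Postn, Fn1 and Apoe were named after their values were seen. The 10 genes and the lists were chosen with earlier results of these data known. Pairing by number was checked: same-numbered libraries of untreated Sca1 and mESC deviated together with r of 0.33, those of knock-down and NTC with 0.18, but no label says that a number marks a shared culture.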

Additional observations from a re-analysis of the deposited data

How the results depend on the processing

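In untreated Sca1 against mESC, the rises of Krt7, Krt8, Krt18, Krt19 and Cldn6 passed in all 18 alternatives, and the fall of Krt19 in the knock-down in all 19 (log2 -1.37 to -1.03). The calls of Cdh1 and Spint2 in untreated Sca1 against mESC passed in 8 of 18, that of Tjp1 in 9, and those of Epcam and Spint1 in 16. The cause was not tested. No alternative was run for NTC or knock-down against mESC. Depth limits Krt7, with 1 count in mESC.

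For untreated Sca1 against mESC, members called lower were 1 with library totals, 1 in the fit of the compared groups, 0 against 1.5-fold and 0 to 3 with a library left out. Against 1.5-fold, 1311 genes were higher and 730 lower. For the knock-down against NTC, genes higher and lower were 259 (higher) with library totals, 372 and 903 by DESeq2, 1982 and 2434 in the fit of the compared groups, and 41 and 556 against 1.5-fold. With a library left out they were 111 to 1034 higher and 537 to 1793 lower. Members called lower were 3 in the fit of the compared groups (1 higher) and 1 to 2 with a library left out. With untreated Sca1 as control, 1025 genes and 1 member were higher. For NTC against untreated Sca1, genes lower were 18 with library totals, 343 without a filter and 348 in the fit of the compared groups, and 14 higher and 1 lower against 1.5-fold. With a library left out, 54 to 988 were higher and 2 to 529 lower, and 0 to 2 members were higher.

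With the replicate block by description number, 1054 genes were higher and 2 members lower (Krt19 and Krt18, adjusted p = 0.0283) in the knock-down against NTC. In NTC against untreated Sca1, 819 genes were higher, 442 lower and 2 members higher (Cdh1 0.0041 and Cldn6 0.0233), with Krt8 at -0.056 and Epcam at 0.23. The block by title number changed no member's call.

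Signs that changed, all of log2 values not called, were these. In the knock-down against NTC, Epcam ranged from -0.010 without knock-down replicate 2 to 0.063 without knock-down replicate 1. With untreated Sca1 as control, Cdh1 was 0.23, Cldn6 0.13, Epcam -0.043 and Tjp1 -0.043. In NTC against untreated Sca1, Epcam was 0.042 with library totals. Without untreated Sca1 replicate 1, Krt18 was -0.073, Spint1 -0.068 and Epcam -0.39, and without replicate 2 they were 0.14, 0.45 and 0.31.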
